A study of Mus musculus with 8 samples.

Results

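The Slc25 family of mitochondrial carriers was examined in the brown adipose tissue of male C57BL/6 mice, a depot specialised in making heat. The tissue came from a group labelled HFD (high-fat diet), with 4 arrays, and a group labelled NCD, which the labels do not spell out, with 4 arrays. Both groups share strain, sex and tissue, while mouse age and feeding length are not stated in what was used here. The carriers were taken by symbol as every gene called Slc25a with a number, and 44 symbols matched. Slc25a1, Slc25a4, Slc25a5, Slc25a20 and Slc25a44 were left out beforehand, which leaves 39 carriers of 21759 genes. Carriers that the file lists under other symbols, such as the uncoupling proteins and Mcart1 (now Slc25a51), are not among the 39. Each value is a normalized log2 intensity of 1 transcript cluster, the set of probes placed along a gene, and for a symbol with several clusters the one with the highest mean over 8 arrays was used. No label states whether each array is its own animal, and a p-value here speaks only for the variation among these 8 arrays, which may be technical.

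Slc25 proteins form the largest family of transporters of the mitochondrial inner membrane. Most exchange a metabolite of the matrix for one of the cytosol, so they set which acids, amino acids, nucleotides and cofactors can cross between fuel oxidation inside the organelle and synthesis outside it. Brown fat holds many mitochondria, and the best known member there is the uncoupling protein Ucp1, which carries protons and releases heat.

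No carrier passed the test in either direction. By limma with Benjamini-Hochberg adjustment over all genes at 0.05, 0 of 39 carriers were lower and 0 higher in HFD, against 0.133% and 0.00919% of all genes, 0.142% in either direction. At an unadjusted limma p under 0.05 there were 3 lower carriers and 0 higher ones, against 4.52% and 2.73% of all genes, 7.24% in either direction. The smallest adjusted p of any carrier was 0.462. The differences, HFD minus NCD on the log2 scale, ran from -0.37 (Slc25a48) to 0.20 (Slc25a27). Their median was -0.05, against -0.01 over all genes. Without NCD 1 the median of the carriers was -0.024. That was the smallest in size of the fits without 1 array, whose range is given at the end. Means were lower in HFD for 26 carriers and higher for 13, and 53.2% of all genes had a lower mean in HFD.

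The sizes that these arrays leave room for were small for most carriers. For 34 of the 39, the 95% interval of the difference lay within 1.5-fold in either direction, as it did for 91.6% of all genes. The exceptions were Slc25a12, Slc25a23, Slc25a32, Slc25a36 and Slc25a48. Slc25a36 is an exception by its brightest cluster, which the file places on chromosome 2. Its other cluster, on chromosome 9, had an interval within 1.5-fold, -0.38 to 0.07. The largest standard error, 0.30, belonged to Slc25a12, and the smallest was 0.11. Where a carrier's signal is near background, such an interval bounds the change in array signal only.

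The carriers differed in whether the arrays detected them. The 95th percentile of the 1096 olfactory receptor genes, used as a stand-in for genes without expression, lay at a mean of 6.41. Of the 39 carriers, 15 lay above it and 24 at or below it. Slc25a15, at 6.43, was just inside this limit, and Slc25a12, at a mean of 6.40, just outside. Slc25a12 had 7.54 on HFD 3 and 7.11 on NCD 1, and 5.91 to 6.21 on the other arrays, below the limit. The 15 include carriers of phosphate and oxoglutarate (Slc25a3, Slc25a11), ornithine (Slc25a15), glutathione (Slc25a39, Slc25a40), cofactors and nucleotides (Slc25a16, Slc25a17, Slc25a23, Slc25a32, Slc25a36, Slc25a42), iron (Slc25a28), and the less defined Slc25a35 and Slc25a46. Carriers known mainly from other tissues were among the 24, such as Slc25a31, the ADP/ATP carrier of testis, and Slc25a47, a liver carrier. The 95% interval of the difference lay within 1.5-fold for 12 of the 15 detected carriers, against 88.6% of genes above that level.

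**Figure D1:**
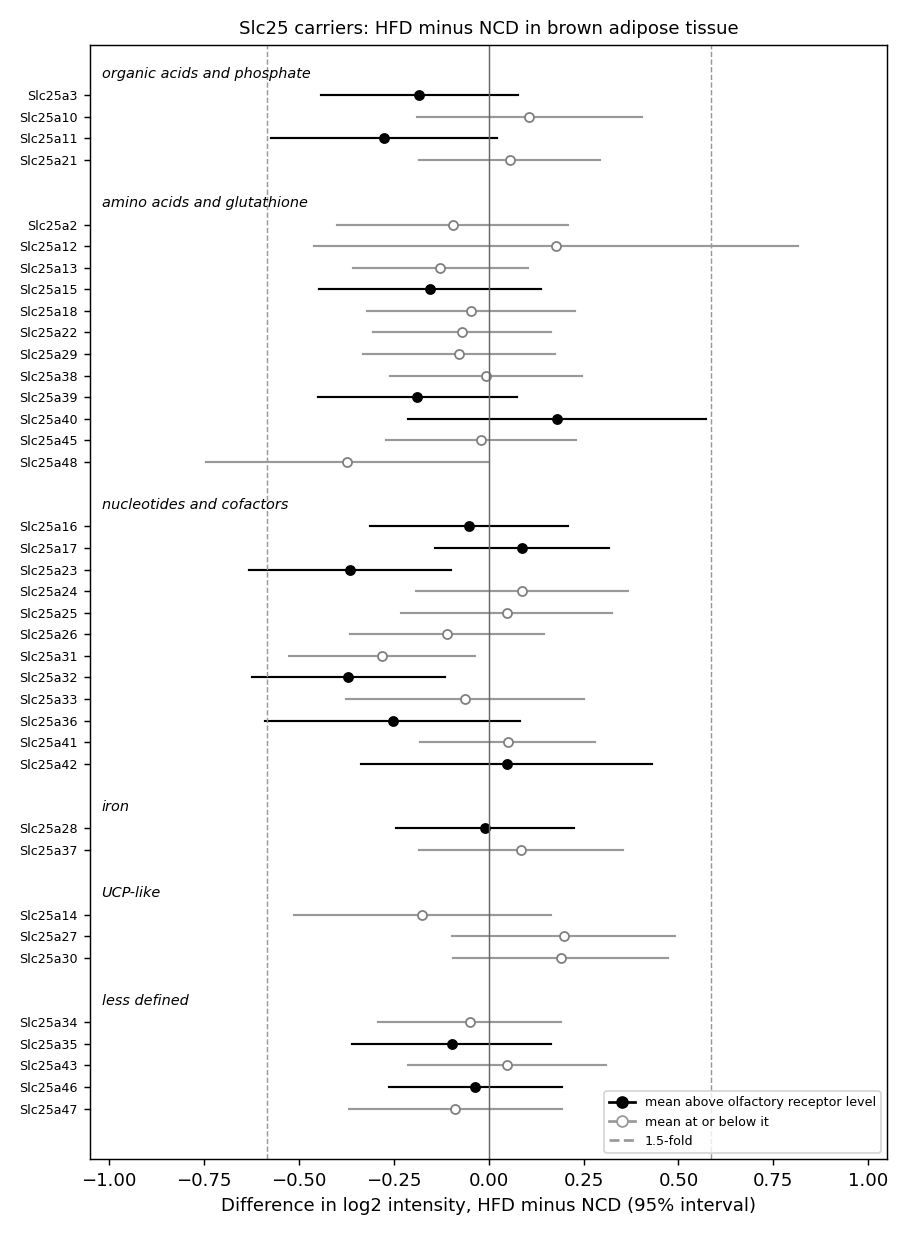
Differences in log2 intensity, HFD minus NCD, for 38 of the 39 carriers, grouped by what they carry. Slc25a48 is drawn with the amino acid and glutathione carriers. Points are limma estimates from 4 HFD and 4 NCD arrays, bars are 95% intervals, dashed lines mark 1.5-fold and open points are carriers at or below the olfactory receptor level. All but 3 intervals include 0, those of Slc25a23, Slc25a31 and Slc25a32.

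Detected carriers had promoters richer in CpG dinucleotides, as had detected genes in general. RefSeq promoter entries (GRCm38.p6) were at hand for 30 of the 39 carriers, and the 250 bases before the gene start were read. The median was 19 CpG in the 11 carriers above the olfactory receptor level and 9 in the 19 at or below it. Over all measured genes with an entry the medians were 16.5 in the 5468 genes above that level and 7 in the 8888 at or below it. GC content followed, with medians of 63.6% and 56% in the carriers, against 60% and 54% over all measured genes with an entry. The ranges of CpG counts overlapped, from 10.5 to 40 in detected carriers and from 1 to 25 in the others. These are descriptions without a test.

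**Figure D2:**
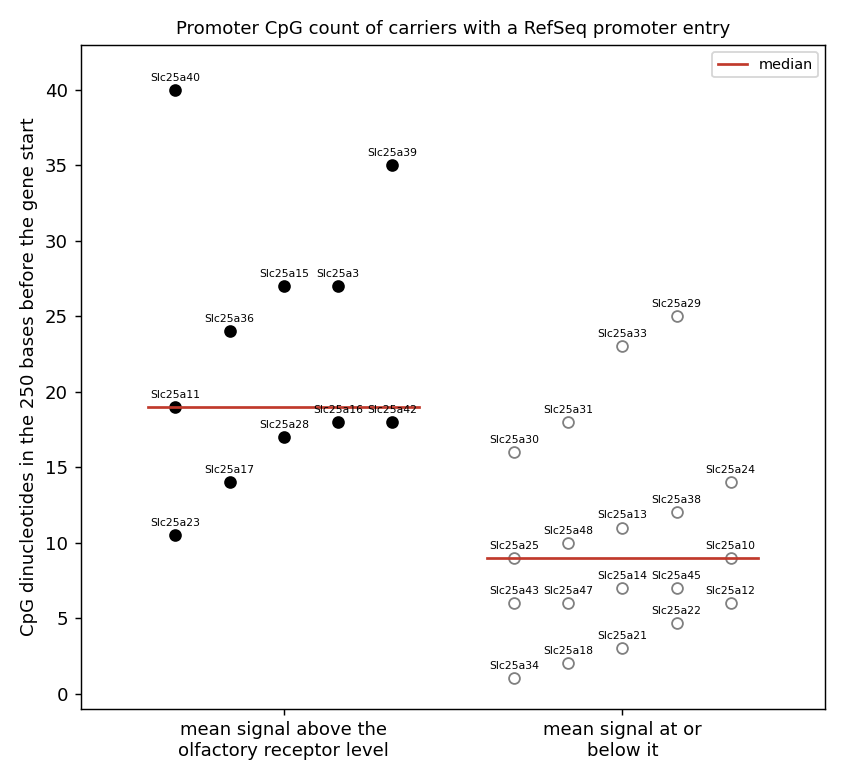
CpG dinucleotides in the 250 bases before the RefSeq start (averaged where a gene has several starts) for 11 carriers above and 19 carriers at or below the olfactory receptor level. Red lines are medians, 19 and 9.

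The promoters below are those of the carriers of smallest p with an entry, a pair from above and a pair from below the olfactory receptor level, shown so that the spread in CpG can be read off. CpG dinucleotides are in capitals, and each runs 5′ to 3′ on the gene's strand up to the base before the start. Slc25a23 (chr17:57059843-57060092, minus strand) and Slc25a11 (chr11:70647040-70647289, minus strand) were above that level, with 12 and 19 CpG. Slc25a31 (chr3:40708621-40708870, plus strand) and Slc25a48 (chr13:56438105-56438354, plus strand) were below it, with 18 and 10 CpG. Slc25a23 has a second, overlapping RefSeq start with 9 CpG.
Slc25a23: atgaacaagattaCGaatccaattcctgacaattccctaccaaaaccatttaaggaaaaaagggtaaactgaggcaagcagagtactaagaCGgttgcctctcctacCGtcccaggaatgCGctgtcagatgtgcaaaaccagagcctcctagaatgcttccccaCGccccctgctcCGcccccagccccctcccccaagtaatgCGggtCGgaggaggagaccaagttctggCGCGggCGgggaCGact
Slc25a11: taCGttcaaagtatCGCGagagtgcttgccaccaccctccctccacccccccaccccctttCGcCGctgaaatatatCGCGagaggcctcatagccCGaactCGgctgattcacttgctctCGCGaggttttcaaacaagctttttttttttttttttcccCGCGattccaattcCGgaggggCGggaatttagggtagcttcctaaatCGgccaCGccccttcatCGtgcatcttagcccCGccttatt
Slc25a31: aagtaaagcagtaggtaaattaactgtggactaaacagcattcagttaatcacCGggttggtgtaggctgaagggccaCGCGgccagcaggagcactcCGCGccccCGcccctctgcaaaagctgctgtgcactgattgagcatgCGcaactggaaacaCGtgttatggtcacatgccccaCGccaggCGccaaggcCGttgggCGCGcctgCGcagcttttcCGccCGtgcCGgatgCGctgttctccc
Slc25a48: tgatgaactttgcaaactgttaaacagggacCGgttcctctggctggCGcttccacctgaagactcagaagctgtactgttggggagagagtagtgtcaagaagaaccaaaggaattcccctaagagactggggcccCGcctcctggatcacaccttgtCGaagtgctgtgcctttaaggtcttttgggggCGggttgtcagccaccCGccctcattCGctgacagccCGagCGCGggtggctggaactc

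The same windows were searched on both strands for motifs of factors known from mitochondrial and lipogenic genes, none of which contains another. The E-box CACGTG was present in 6 of the 30 carriers with an entry (20%), against 6.86% of all 27025 genes with an entry. The carriers were Slc25a13, Slc25a14, Slc25a15, Slc25a31, Slc25a33 and Slc25a36. Of the 11 carriers above the olfactory receptor level, 2 had it (Slc25a15 and Slc25a36). The 27025 genes include some that the arrays did not measure, unlike the genes of the CpG comparison. The NRF1 palindrome occurred in Slc25a3 and Slc25a31 (6.67%, against 4.23% of genes), and the cyclic AMP response element TGACGTCA in Slc25a25 and Slc25a36 (6.67%, against 1.77%). The ERR element AAGGTCA occurred in Slc25a34 only (3.33%, against 4.7%). The CCAAT box CCAAT was in 15 of the 30 (50%, against 37.5%). A match is a description of letters, not a binding site.

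Carriers of organic acids and phosphate link the citric acid cycle and ATP synthesis to the cytosol. Of the 4, 0 passed the test, 2 had lower and 2 higher means in HFD. Slc25a11, which exchanges oxoglutarate for malate and is a limb of the malate-aspartate shuttle, had log2 levels of 8.79, 8.82, 8.89 and 9.27 on HFD 1 to 4, against 9.16, 9.35, 9.42 and 8.94 on NCD 1 to 4. HFD 4 lay among the NCD arrays and NCD 4 was the lowest of its group, so the groups overlapped. The difference was -0.275 ± 0.14 (SE, limma adjusted p = 0.713).

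Slc25a3, the phosphate carrier that feeds ATP synthase, had 9.84, 9.97, 10.18 and 10.19 on HFD 1 to 4, against 10.18, 10.40, 10.28 and 10.05 on NCD 1 to 4. HFD 3 and HFD 4 reached the level of NCD 1, and the difference was -0.18 ± 0.12 (SE, limma adjusted p = 0.815). The dicarboxylate carrier Slc25a10 (0.11) and the oxoadipate carrier Slc25a21 (0.06) had higher means in HFD, both at signals below the olfactory receptor level.

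Amino acid and glutathione carriers, with the choline transporter Slc25a48 counted among them, made the second largest group. Of the 12, 0 passed the test, with 10 lower and 2 higher means. At or below the olfactory receptor level were 9 of the 12, with 8 of the lower means. Slc25a39, which imports glutathione, had 7.92, 8.02, 7.83 and 8.01 on HFD 1 to 4, against 7.85, 8.21, 8.36 and 8.11 on NCD 1 to 4. NCD 1 lay within the HFD values and the other 3 NCD arrays above them, a difference of -0.19 ± 0.12 (SE, limma adjusted p = 0.813). Its close relative Slc25a40 differed by 0.18 ± 0.18 (SE) in the other direction. Slc25a40 had 6.15 on NCD 4, against 6.86 to 7.16 on the other 7 arrays, and without NCD 4 the difference was -0.05.

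Slc25a48, a choline transporter of the inner membrane, had 5.95, 6.18, 6.32 and 5.86 on HFD 1 to 4, against 5.93, 6.88, 6.38 and 6.61 on NCD 1 to 4. NCD 1 sat among the HFD arrays, and the other NCD arrays lay above all of them. The difference of -0.37 ± 0.17 (SE, limma adjusted p = 0.689) was the most negative of the family. It stood at -0.55 without NCD 1 (limma adjusted p = 0.271) and at -0.23 without NCD 2 (limma adjusted p = 0.970). The mean over 8 arrays, 6.26, was below the olfactory receptor level.

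Among the other carriers of this group, the ornithine carriers Slc25a15 and Slc25a2 differed by -0.155 and -0.095. The glutamate carriers Slc25a22 and Slc25a18 differed by -0.07 and -0.05, and Slc25a29, a carrier of basic amino acids, by -0.08. Slc25a38, the glycine carrier of heme synthesis, stood at 6.03 ± 0.13 in HFD and 6.03 ± 0.16 in NCD (SD, n = 4 each). Slc25a45 stood at 5.675 in HFD and 5.695 in NCD. The intervals of these 7 carriers all lay within 1.5-fold.

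Slc25a12 (aralar) and Slc25a13 (citrin) are the aspartate/glutamate carriers of the malate-aspartate shuttle, and Slc25a12 is the form of muscle and brain. Slc25a12 had 6.21, 6.10, 7.54 and 6.10 on HFD 1 to 4, against 7.11, 5.91, 6.17 and 6.05 on NCD 1 to 4. HFD 3 and NCD 1 thus stood apart, by 1.40 from the mean of the other HFD arrays and by 1.07 from that of the other NCD arrays. Slc25a13 had 5.46, 5.24, 5.45 and 5.22 on HFD 1 to 4, against 5.49, 5.52, 5.44 and 5.43 on NCD 1 to 4, and those arrays were not apart.

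HFD 3 and NCD 1 are also the arrays with high skeletal muscle genes. The mean of 8 muscle markers (8 of 8 measured) was 9.75 on HFD 3 and 9.10 on NCD 1 and between 5.32 and 5.90 on the other 6 arrays. It ranged from 5.40 to 9.75 in HFD and from 5.32 to 9.10 in NCD. Myh4, a myosin heavy chain of fast muscle, had 11.11 on HFD 3 and 10.52 on NCD 1, against 4.48 to 5.73 elsewhere. In whole tissue, fewer cells of a type and less RNA per cell cannot be told apart. The part of muscle RNA in the Slc25a12 values was not tested.

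The diet comparison of Slc25a12 turned with these arrays. The difference was 0.18 ± 0.30 (SE, limma adjusted p = 0.933) with all arrays and 0.09 (limma adjusted p = 0.883) without both. It was -0.17 without HFD 3 alone and 0.44 without NCD 1 alone. Of the 39 carriers, 12 were above the mean of their group's other arrays on both HFD 3 and NCD 1. Apart from Slc25a12, the smaller of the 2 gaps to those means was at most 0.14 (Slc25a24).

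**Figure D3:**
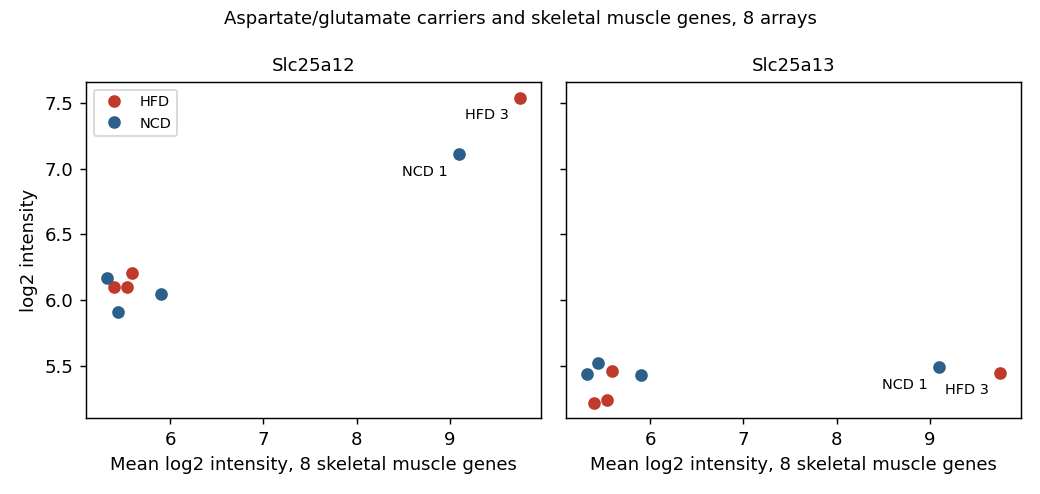
Log2 intensity of Slc25a12 and Slc25a13 on each of 4 HFD and 4 NCD arrays against the mean of 8 skeletal muscle genes on that array. HFD 3 and NCD 1 are apart from the other 6 arrays on the muscle axis in both panels and on the Slc25a12 axis, but not on the Slc25a13 axis.

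Carriers of nucleotides and cofactors supply the matrix with ATP, coenzyme A, folate and pyrimidine nucleotides. Of the 13, 0 passed the test, 8 had lower and 5 higher means in HFD, and the 3 carriers of the family with an unadjusted limma p under 0.05 were all here. Slc25a32, which brings folate and FAD into mitochondria, had 8.61, 8.69, 8.94 and 8.63 on HFD 1 to 4, against 9.01, 9.19, 9.23 and 8.92 on NCD 1 to 4. HFD 3 lay just above NCD 4, and the other HFD arrays lay below every NCD array. The difference was -0.37 ± 0.12 (SE, 95% interval -0.62 to -0.12, limma adjusted p = 0.462). In the file's own coordinates, of a build that it does not name, the cluster spans chromosome 15 from 38925823 to 38944184.

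Slc25a23, a calcium-regulated carrier that exchanges ATP-Mg for phosphate, had 7.94, 8.29, 8.14 and 8.38 on HFD 1 to 4, against 8.41, 8.71, 8.64 and 8.45 on NCD 1 to 4. Its HFD values all lay below its NCD values, with HFD 4 and NCD 1 nearly touching. Of the 39 carriers, 2 had groups that did not overlap, both lower in HFD. Over all genes 2.5% were separated in that direction and 1.33% in the other, 3.83% in all. The difference was -0.365 ± 0.12 (SE, 95% interval -0.63 to -0.10, limma adjusted p = 0.507). Without NCD 2 and NCD 3, the arrays of widest spread in their group, it was -0.24 for Slc25a23 (limma adjusted p = 0.812) and -0.25 for Slc25a32 (limma adjusted p = 0.773). Those arrays held the highest NCD values of both genes, so leaving them out had to make the differences less negative.

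The other carriers of the ATP-Mg type did not share the sign of Slc25a23. Slc25a24 differed by 0.09, Slc25a25 by 0.05 and Slc25a41 by 0.05, all at signals below the olfactory receptor level. Slc25a41 lies next to Slc25a23: in the file's coordinates its cluster spans chromosome 17 from 57172196 to 57180726 and that of Slc25a23 from 57183134 to 57199286. Slc25a41 had 5.65, 5.57, 5.53 and 5.59 on HFD 1 to 4, against 5.37, 5.52, 5.58 and 5.67 on NCD 1 to 4. The difference between the neighbours' differences was not tested.

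Slc25a31 was the other carrier with separated groups, at 3.50, 3.36, 3.25 and 3.30 on HFD 1 to 4, against 3.84, 3.64, 3.53 and 3.52 on NCD 1 to 4. HFD 1 and NCD 4 differed by little, and every value was far below the olfactory receptor level of 6.41. The difference was -0.28 ± 0.11 (SE, limma adjusted p = 0.625).

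**Figure D4:**
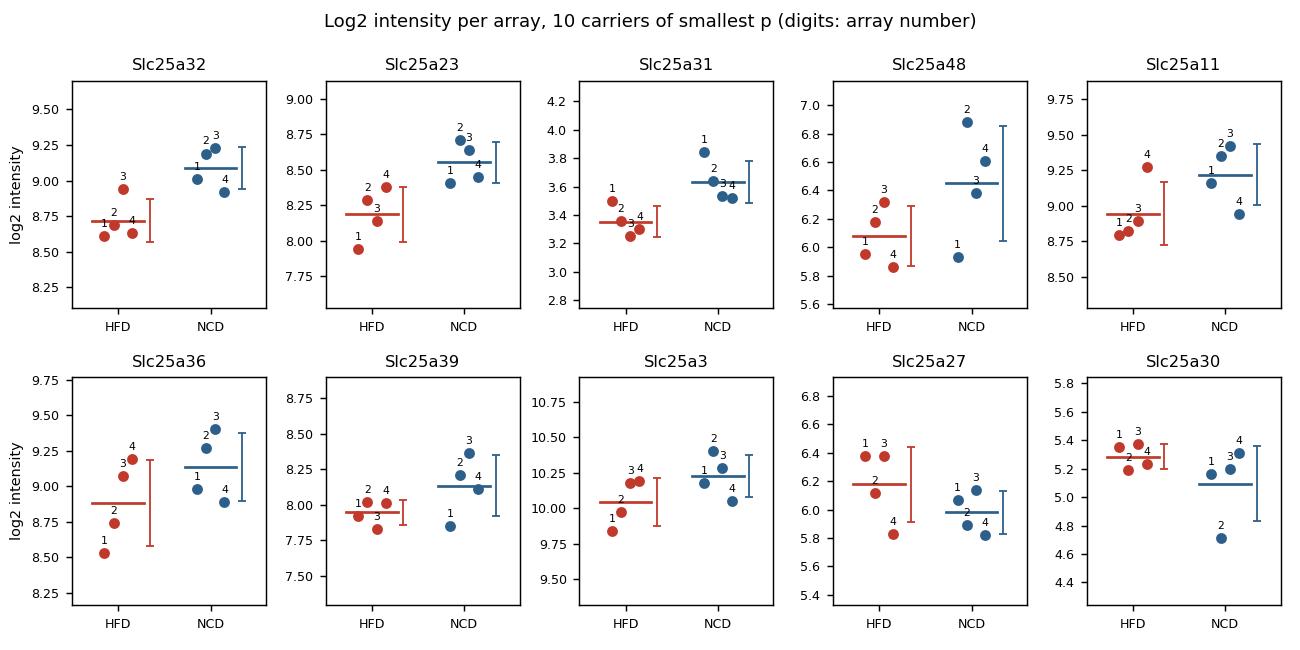
Log2 intensity on each array for the 10 carriers of smallest p, HFD left of NCD, with the group mean as a line and the SD (n = 4) as a bar beside it; each panel spans 1.6 log2 units. Groups do not overlap for Slc25a23 and Slc25a31 and do overlap for the other 8.

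Pyrimidine nucleotides are carried by Slc25a33 and Slc25a36. The brightest Slc25a36 cluster had 8.53, 8.74, 9.07 and 9.19 on HFD 1 to 4, against 8.98, 9.27, 9.40 and 8.89 on NCD 1 to 4, a difference of -0.25 ± 0.16 (SE, limma adjusted p = 0.799). HFD 3 and HFD 4 lay inside the NCD range, and without HFD 1 the difference was -0.135. Slc25a33, below the olfactory receptor level, differed by -0.06. Among the cofactor carriers, Slc25a26 for S-adenosylmethionine differed by -0.11 and Slc25a16, linked to coenzyme A supply, by -0.05. Slc25a42, a coenzyme A carrier, had 7.61, 7.60, 7.39 and 7.98 on HFD 1 to 4, against 7.24, 7.27, 8.05 and 7.83 on NCD 1 to 4. The NCD arrays thus fell into a low and a high pair that bracketed 3 of the HFD arrays, and the difference was 0.05 ± 0.18 (SE).

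For 4 carriers the file holds 2 clusters each, and for 2 of them the clusters differed in sign. The brightest Slc25a17 cluster, of the peroxisomal carrier of coenzyme A and related cofactors, spans only chromosome 15 from 81194375 to 81194521 and differed by 0.09. The cluster that spans chromosome 15 from 81149345 to 81191204 had 8.19, 8.43, 8.44 and 8.65 on HFD 1 to 4, against 8.47, 8.74, 8.77 and 8.63 on NCD 1 to 4. It differed by -0.225 ± 0.12 (SE, limma adjusted p = 0.750 over all 25254 clusters), with HFD 4 alone inside the NCD range.

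RefSeq places Slc25a36 on chromosome 9, but the file gives its brightest cluster as chromosome 2, 8962744 to 8963226. It was the 1 carrier of the 39 with such a mismatch. The Slc25a36 cluster on chromosome 9, from 96976016 to 97011460, had 8.77, 8.52, 8.71 and 8.53 on HFD 1 to 4, against 8.79, 8.82, 8.83 and 8.72 on NCD 1 to 4. HFD 1 alone reached into the NCD range, and the difference was -0.16 ± 0.10 (SE, limma adjusted p = 0.812 over all clusters). Slc25a40 has a cluster on chromosome 9 besides its own on chromosome 5, with a difference of -0.20 against 0.18. The clusters of Slc25a46, an outer membrane protein that shapes mitochondria, differed by -0.035 and -0.03.

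**Figure D5:**
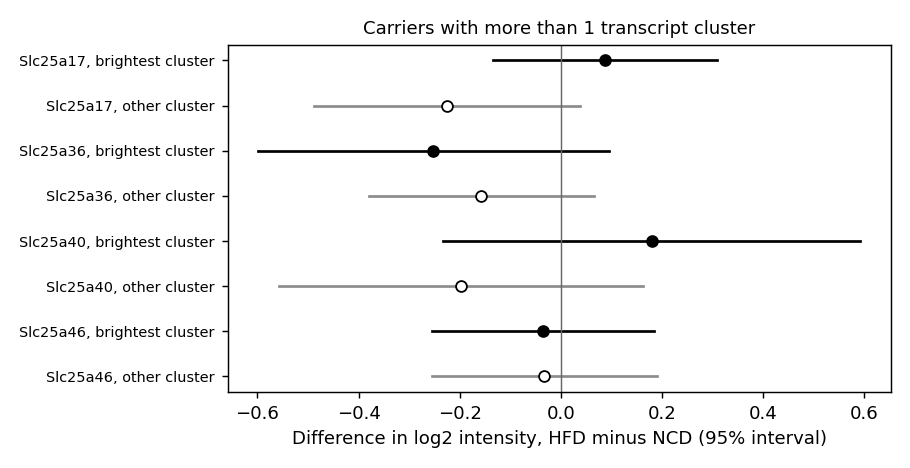
Differences in log2 intensity, HFD minus NCD, with 95% intervals from the fit over all clusters, for the 4 carriers with 2 clusters. The brightest and the other cluster lie on opposite sides of 0 for Slc25a17 and Slc25a40 and on the same side for Slc25a36 and Slc25a46, and all 8 intervals include 0.

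Of the 2 iron carriers, the mitoferrins, 0 passed the test. Slc25a28, the form found in most tissues, had 7.07, 7.07, 6.91 and 7.09 on HFD 1 to 4, against 7.11, 7.15, 7.06 and 6.86 on NCD 1 to 4, so that the means differed by -0.01 (95% interval -0.24 to 0.22). The HFD values all lay inside the NCD range. Slc25a37, the form of red cell precursors, differed by 0.085 at a signal below the olfactory receptor level. The mean of 6 erythroid markers ranged from 6.82 to 7.01 in HFD and from 6.925 to 7.14 in NCD, and 4 of the 6, including Alas2, were below the olfactory receptor level in mean signal.

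Carriers related in sequence to the uncoupling proteins were all below the olfactory receptor level. Slc25a27 (Ucp4), known from brain, had 6.38, 6.12, 6.38 and 5.83 on HFD 1 to 4, against 6.07, 5.89, 6.14 and 5.82 on NCD 1 to 4, with a difference of 0.20 ± 0.14 (SE, limma adjusted p = 0.822). The groups overlapped. Slc25a30, known from kidney, had 5.35, 5.19, 5.37 and 5.23 on HFD 1 to 4, against 5.16, 4.71, 5.20 and 5.31 on NCD 1 to 4. NCD 2 was the low array there, and the difference was 0.19 ± 0.13 (SE, limma adjusted p = 0.822), or 0.062 without NCD 2. Slc25a14 (Ucp5) differed by -0.175, so the 3 did not share a sign.

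Of the 5 less defined carriers, 0 passed and 4 had lower means in HFD. Slc25a35 had 9.01, 9.27, 9.14 and 9.22 on HFD 1 to 4, against 9.03, 9.52, 9.25 and 9.23 on NCD 1 to 4, a difference of -0.10 ± 0.12 (SE, limma adjusted p = 0.909) with wide overlap. Slc25a34, Slc25a43 and Slc25a47 differed by -0.05, 0.05 and -0.09.

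The detected carriers varied together from array to array. Averaged over the 15 and centred on each gene's own mean, the levels were -0.21, -0.06, -0.06 and 0.09 on HFD 1 to 4, against -0.05, 0.13, 0.21 and -0.06 on NCD 1 to 4. HFD 4 was the highest HFD array for 11 of the 15, and NCD 2 or NCD 3 the highest NCD array for 5 and 8. How often an array was highest was not counted over all genes. Over all 7897 genes above the olfactory receptor level the deviations were -0.07, -0.06, -0.01 and 0.04 on HFD 1 to 4, against -0.06, 0.07, 0.15 and -0.05 on NCD 1 to 4. There too HFD 4 was the highest HFD array and NCD 3 the highest NCD array, so this order is not particular to the carriers. Of the 15 detected carriers 12 had lower means in HFD, with a median of -0.135, against 63.8% of the 7897 genes and a median of -0.05. Without HFD 1 the median of the 15 was -0.0475, against -0.04 over the 7897, with 11 of the 15 and 60.4% of the 7897 lower. Some other choices moved the median or the count the other way. Without HFD 4, 13 of the 15 were lower (median -0.1875), against 67% of the 7897 (median -0.08). Without NCD 1 the medians were -0.17 and -0.085. With clusters averaged, 14 of the 15 were lower, against 63.7%. Further choices lowered both the count and the size of the median, as leaving out HFD 1 did. Without NCD 2 and NCD 3, 8 of the 15 had lower means (median -0.035), against 43.3% of the 7897. After cyclic loess 9 of the 15 were lower (median -0.06), against 48.2% of the 7897 (median 0.0072). Once every array had the same median and spread, 10 of the 15 were lower (median -0.06), against 52.7% (median -0.0091). Single carriers moved with NCD 2 and NCD 3 too: without both, the differences were -0.11 for Slc25a11, -0.07 for Slc25a3, -0.035 for Slc25a39 and -0.05 for Slc25a36. Those arrays held the highest NCD values of each of these carriers, so the direction of the shift was fixed. The part of array spread in the lower means was not tested.

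Other routes across the mitochondrial membranes were set beside the family as 3 lists. For comparison, 63.8% of the 7897 genes above the olfactory receptor level had a lower mean in HFD, with a median of -0.05. Over all genes 53.2% had a lower mean, and 2.5% had separated groups in that direction. Among 20 other membrane transporters 0 passed, 15 had lower means in HFD, and the median difference was -0.10. Their mean per array was 7.80 to 8.02 in HFD and 7.85 to 8.10 in NCD. The smallest p values belonged to the subunits of the mitochondrial pyruvate carrier. Brp44l (now Mpc1) had 10.35, 10.51, 10.57 and 10.74 on HFD 1 to 4, against 10.91, 11.27, 11.04 and 11.08 on NCD 1 to 4, a difference of -0.53 ± 0.12 (SE, limma adjusted p = 0.144). Brp44 (now Mpc2) had 9.90, 9.99, 10.01 and 10.08 on HFD 1 to 4, against 10.25, 10.39, 10.48 and 10.24 on NCD 1 to 4, a difference of -0.345 ± 0.11 (SE, limma adjusted p = 0.416). Neither gene's groups overlapped.

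Of 12 genes of the machinery that imports carriers into the inner membrane, 0 passed and 9 had lower means, with a median of -0.18. Their mean per array was 7.06 to 7.20 in HFD, against 7.14, 7.34, 7.44 and 7.11 on NCD 1 to 4. NCD 1 and NCD 4 thus lay inside the HFD range. Timm8b, a chaperone of the space between the membranes, had 8.84, 8.80, 8.89 and 8.99 on HFD 1 to 4, against 9.03, 9.38, 9.54 and 9.05 on NCD 1 to 4. Its groups did not overlap. Timm8b differed by -0.37 (limma adjusted p = 0.520), and Timm22, the core of the insertion complex, by -0.37 (limma adjusted p = 0.621) at a signal below the olfactory receptor level. Of 6 enzymes of the malate-aspartate and glycerol phosphate shuttles, 0 passed and 5 had lower means, with a median of -0.24. Their mean per array was 9.665 to 10.03 in HFD and 9.87 to 10.15 in NCD. Gpd1, the cytosolic glycerol phosphate dehydrogenase, had 10.22, 10.51, 10.25 and 10.52 on HFD 1 to 4, against 10.59, 10.85, 10.99 and 10.79 on NCD 1 to 4, a difference of -0.43 ± 0.12 (SE, limma adjusted p = 0.331). Mdh1, the cytosolic malate dehydrogenase, differed by -0.35 ± 0.11 (SE, limma adjusted p = 0.472), also with groups that did not overlap.

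Across the series, array medians lay between 5.91 and 5.99 and the standard deviation over clusters between 1.69 and 1.82. Of the 8 brown adipocyte markers, 7, Ucp1 and Cidea among them, lay above the olfactory receptor level on every array, and the 8 had an array mean of 9.525 to 9.72 in HFD and 9.685 to 10.07 in NCD. The other, the fatty acid elongase Elovl3, had 5.33 to 6.22 in HFD, below that level, against 6.82 to 7.59 in NCD, above it. It was the 1 of the 8 that passed the test, at -1.385 (limma adjusted p = 0.00673). Of the 8, 7 had lower means in HFD, and the part of these markers in the carrier values was not tested. Macrophage markers averaged 7.24 to 7.90 in HFD and 7.07 to 7.75 in NCD, endothelial markers 8.66 to 8.98 in HFD and 8.52 to 8.92 in NCD, and liver markers 6.04 to 6.47 in HFD and 5.755 to 6.41 in NCD. Means were higher in HFD for 5 of 5 macrophage markers (median difference 0.30), 3 of 4 endothelial markers (0.19) and 4 of 4 liver markers (0.23), with 0 past the test in each list. Groups did not overlap for 1 of these markers, Apoa1, higher in HFD at a signal below the olfactory receptor level. Over all genes 1.33% were separated in that direction. Of the 4 liver markers, 3 were below the olfactory receptor level in mean signal. The part of the macrophage, endothelial and liver markers in the carrier values was not tested.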

How the data were processed

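Total RNA of brown adipose tissue from 4 HFD and 4 NCD samples was labelled and hybridised, 1 array per sample, to the Affymetrix Mouse Gene 1.0 ST platform, with 1 value per transcript cluster. The deposited values are log2 intensities. Per the series design text, these were quantile normalized by the authors in Affymetrix Power Tools (version not given). Background correction, summarization, build and annotation are not stated there. Per the file headers, the authors also deposited a p-value and a signed fold change per cluster, a score that the values show at or beyond 1 in size. By the authors' deposited table, 3 of the 39 carriers had a p of at most 0.05, against 6.47% of clusters. A second file of values, deposited by the authors, was identical.

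The cluster of highest mean stood for each of 21759 symbols. limma 3.58.1 in R 4.3.3 (lmFit, eBayes, prior degrees of freedom 8.87, two-sided) compared HFD with NCD over all genes, with Benjamini-Hochberg adjustment and a threshold of 0.05. Errors of differences are moderated standard errors. The number of arrays limits the precision: the median standard error over genes was 0.13. In a simulation with 200 changed genes of 21759, the HFD against NCD fit recovered 56.7% of 1.5-fold, 89.6% of 2-fold and 100% of 3-fold changes. It made 8 false calls. The simulated noise was normal and independent between genes, without the deviations that genes share on an array here. Its rates may therefore differ from those of the real arrays. The 200 planted changes also loosened the Benjamini-Hochberg adjustment, while the real fit called 31 genes. In the real fit, 1.5-fold changes may therefore be recovered less often. No pair of arrays was a duplicate (correlation 0.976 to 0.991).

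Of the carriers, 1 is counted in the totals but not reported here by name. The carriers, role groups and comparison lists were chosen with earlier results of these data known. All array values were given for the 10 carriers of smallest p and for the detected carrier of smallest p in each role group, and the 2 genes of smallest p were named from each comparison list. Slc25a12, Slc25a13, Slc25a17, Slc25a40, Slc25a41, Slc25a42 and the further clusters were singled out after their values were seen. Promoter sequences are from RefSeq (GRCm38.p6), and 30 of 39 carriers matched. Alternatives were the t-test named in the design text, other variance models and weights, a replicate block, a filter on dim genes, other scalings, cluster means, and arrays left out.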

Additional observations from a re-analysis of the deposited data

Results flagged for a closer look

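In each group of 4 arrays, the highest and lowest value of every carrier was compared with the nearest other value by Dixon's criterion, and 3 of 78 groups held an array that stood apart. Chance alone would give about 1 in 20. Slc25a12 on HFD 3, at 7.54, lay above a next value of 6.21, and HFD 3 is also high in skeletal muscle genes. Slc25a17 on NCD 2, at 11.00, lay above a next value of 10.86, a small gap in a group whose other arrays were nearly equal. Slc25a28 on HFD 3, at 6.91, lay below a next value of 7.07.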

How the results depend on the processing

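No carrier passed the threshold under any alternative run, and the lowest adjusted p was 0.210 (Slc25a48, limma, without NCD 1 and HFD 3). Of the 515 carrier differences that an alternative could move, 464 kept their sign and 51 did not, and for those the cause was not tested. The t-test, variance trend, replicate block and dim filter leave every difference as it was. Slc25a38 was 0.0099 with array weights. Slc25a16, Slc25a28 and Slc25a46 were 0.026, 0.043 and 0.040 after cyclic loess. Slc25a21, Slc25a28 and Slc25a46 were -0.0046, 0.012 and 0.046 with equal median and spread. Slc25a17 and Slc25a40 were -0.069 and -0.0088 with clusters averaged, and -0.225 and -0.20 by their other cluster, an alternative chosen after seeing the data. Without NCD 2 and NCD 3, Slc25a12 was -0.093, Slc25a16 0.080, Slc25a25 -0.063, Slc25a28 0.050, Slc25a33 0.15 and Slc25a35 0.030. Without NCD 1 and HFD 3, Slc25a2 was 0.013, Slc25a18 0.023, Slc25a21 -0.027, Slc25a28 0.053, Slc25a29 0.017, Slc25a38 0.050 and Slc25a47 0.043. Over the fits that leave out 1 array each, differences ran from -0.0033 to 0.20 (Slc25a10), -0.17 to 0.44 (Slc25a12), -0.11 to 0.033 (Slc25a16), -0.16 to 0.016 (Slc25a18), -0.18 to 0.013 (Slc25a2), -0.034 to 0.135 (Slc25a25), -0.072 to 0.032 (Slc25a28), -0.16 to 0.033 (Slc25a33), -0.11 to 0.0092 (Slc25a34), -0.085 to 0.044 (Slc25a38), -0.046 to 0.29 (Slc25a40), -0.0050 to 0.095 (Slc25a41), -0.072 to 0.20 (Slc25a42), -0.024 to 0.11 (Slc25a43), -0.105 to 0.042 (Slc25a45) and -0.073 to 0.021 (Slc25a46). 

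Over all genes, 29 were called lower and 2 higher. The methods' t-test called 0 and 0 after Benjamini-Hochberg adjustment (limma at an unadjusted p under 0.05 gave 983 and 593), a variance trend with robust prior 60 and 10, the filter on dim genes 51 and 6 of 8018 genes tested, and the fit without NCD 2 and NCD 3 gave 2 and 1. Cyclic loess called 8 higher and the mean of clusters 1 higher. Leaving out 1 array gave 19 to 36 lower and 1 to 5 higher. The replicate block called 32 lower and 4 higher. The median over the carriers ran from -0.072 to -0.024 over the fits without 1 array. The numbers 1 to 4 are not shown to pair the arrays, since the correlations of same-numbered deviations were 0.0025, -0.030, -0.028 and -0.17. The median of all genes shifted to 0.0046 with cyclic loess and -0.018 with equal median and spread, against -0.01. For the 24 carriers at or below the olfactory receptor level, signal over background limits what a difference can show.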
